A study of Mus musculus with 6 samples.

Results

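The Notch receptors, ligands and targets described here are 10 genes chosen by name, Notch1, Notch2, Notch4, Dll1, Dll4, Jag1, Jag2, Hes1, Rbpj and Dtx4, out of 52073 named genes in the deposited counts. All 10 were among the 21849 genes with enough counts to be tested. They were measured by RNA-seq of polyadenylated RNA in bone marrow-derived dendritic cells (BMDCs), that is, cells grown from mouse bone marrow with the growth factor GM-CSF and the cytokine IL-4. The study asked how loss of the noncanonical NF-κB gene Nfkb2 changes gene expression in these cells, and compared 3 libraries of WT C57BL/6 BMDCs with 3 libraries of Nfkb2-/- BMDCs. Per the labels, both genotypes received the same culture of 9 days, first 5 days in 20 ng/mL GM-CSF and then 4 days in 20 ng/mL GM-CSF with 10 ng/mL IL-4, and no stimulus was given. The knockout is global, that is, not limited to dendritic cells. No sorting of the BMDCs is described, so that the libraries can hold more than 1 cell type. By flow cytometry of surface markers, the study reports that its protocol gave mostly CD11c+ cells, without macrophage-like cells high in their marker. The marker sums given below are of RNA and were not compared with it. The ages of the mice are not given in the sources used here, nor is the mouse behind each library. The study describes its RNA-seq libraries as biological replicates, and p-values measure the spread between them. Nfkb2-/- replicates 2 and 3 were the closest pair of libraries within a genotype. The distance between their raw counts (chi-square per degree of freedom) was 10.0, against 48.4 to 155 in the other pairs. Whether that pair is as independent as the other libraries cannot be told.

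Notch proteins are receptors that span the cell membrane once and are switched on by ligands of the Delta-like and Jagged families on a neighbouring cell. Ligand pulling exposes the receptor to the protease ADAM10 and then to γ-secretase, and the freed intracellular domain enters the nucleus, joins the DNA-binding protein RBPJ and turns on targets such as Hes1. In dendritic cells, Notch2 is the receptor best known for a role, in the development of the CD11b+ subsets of the spleen and gut. Jag1 has been described as a gene that NF-κB can induce in other cell types.

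Total counts ranged from 29863927 to 55623068 per library. Nfkb2, the targeted gene, was at 215, 154 and 354 CPM (reads per gene scaled to library size with TMM) in WT and at 44.8, 32.3 and 32.6 CPM in Nfkb2-/- BMDCs (log2 fold change, Nfkb2-/- over WT, -2.72, with a standard error of 0.33 and an edgeR adjusted p of 0.0307), so that Nfkb2 reads were reduced but not absent. A gene was called where edgeR's quasi-likelihood test gave it an adjusted p under 0.05 and its fold change exceeded 1.2. A pair of libraries stood apart. Nfkb2-/- replicate 1 had counts on 47952 Ensembl IDs, against 27692 to 33841 in the other libraries. In WT replicate 3, the 10 macrophage markers of a hand-written list, which include Csf1r, Adgre1 and C1qa, summed to 166 CPM, against 1032 and 1199 CPM in the other WT libraries and 686 to 892 CPM in the Nfkb2-/- libraries. The 10 dendritic cell markers, with Itgax, H2-Ab1 and Zbtb46 among them, were present throughout, and their sum was 5440 to 9105 CPM in WT and 7577 to 8532 CPM in Nfkb2-/- BMDCs. Single markers differed, since Itgax, the gene for CD11c, was at 160.2, 276 and 123 CPM in WT and at 744, 767 and 715 CPM in Nfkb2-/- BMDCs and was called higher (log2 fold change 1.99, edgeR adjusted p = 0.0414), while Zbtb46 averaged 179 CPM in WT and 123 CPM in Nfkb2-/- BMDCs without overlap and was not called (edgeR adjusted p = 0.192). The part of these markers in the Notch results was not tested.

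The stretches before the transcription start of 3 members are shown for reference, Jag1 because it was the 1 member called differentially expressed, and Notch2 and Rbpj because their levels were the highest of the 10. Each holds the 250 bases before a start annotated by RefSeq on GRCm38.p6, 5′ to 3′ on the strand of the gene. They lie at chr2:137116521-137116770 on the minus strand for Jag1, at chr3:98013288-98013537 on the plus strand for Notch2 and at chr5:53590096-53590345 on the plus strand for Rbpj, for which the other annotated start was not printed. In the first pair, capitals mark a loose form of the NF-κB motif, GGG and CC separated by any 5 bases, searched on both strands. In the Rbpj stretch they mark TGGGAA, the core that RBPJ binds, or its reverse complement.
Jag1: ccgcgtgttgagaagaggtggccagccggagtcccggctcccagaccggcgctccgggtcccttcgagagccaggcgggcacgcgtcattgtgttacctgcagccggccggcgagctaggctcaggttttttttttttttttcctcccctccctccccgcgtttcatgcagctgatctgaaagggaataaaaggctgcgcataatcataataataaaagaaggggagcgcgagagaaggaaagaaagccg
Notch2: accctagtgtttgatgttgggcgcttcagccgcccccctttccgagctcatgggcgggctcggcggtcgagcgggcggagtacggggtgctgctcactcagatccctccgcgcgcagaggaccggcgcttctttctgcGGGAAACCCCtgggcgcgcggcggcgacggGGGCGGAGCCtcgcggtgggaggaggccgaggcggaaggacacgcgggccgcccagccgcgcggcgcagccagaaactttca
Rbpj: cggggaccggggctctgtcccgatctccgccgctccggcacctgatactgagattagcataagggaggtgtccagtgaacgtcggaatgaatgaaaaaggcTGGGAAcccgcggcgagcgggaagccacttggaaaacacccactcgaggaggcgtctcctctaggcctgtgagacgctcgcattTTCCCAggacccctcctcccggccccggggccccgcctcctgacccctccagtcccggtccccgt
The Jag1 stretch held neither motif. Notch2 held GGGAAACCCC, which begins at position -112 from the start, and GGGCGGAGCC, which begins at -82. Rbpj held the RBPJ core beginning at -149 and its reverse complement beginning at -65, and also 1 match of the loose NF-κB motif at -38 that is not in capitals. These letters are common, since 45.8% of all 32851 annotated stretches of 250 bases held the loose NF-κB motif and 21.6% held TGGGAA, so that a match describes the sequence and no more.

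Between the genotypes, Jag1 was lower in Nfkb2-/- BMDCs, and none of the other 9 members passed the test with edgeR. The single call among 10 members stands beside 1.14% of all genes tested that were called in either direction, 0.682% in the lower and 0.453% in the higher direction. The genotypes did not overlap for 3 members, Jag1, Notch2 and Dll4, where 24.7% of all genes tested did not overlap. The median log2 fold change was 0.75 over the 10 members and 0.08 over all genes tested. Of the 10 members, 8 had a log2 fold change above 0, beside 12179 of the 21849 genes tested, while the called gene fell. A mean under 1 CPM was found for 3 members, all highest in Nfkb2-/- replicate 1. All genes tested under 1 CPM had a median log2 fold change of 0.60. The estimates of Notch1 and Jag2 changed sign in some fits with 1 library left out. Fewer cells of a type and less RNA per cell cannot be told apart in such bulk libraries.

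**Figure D1:**
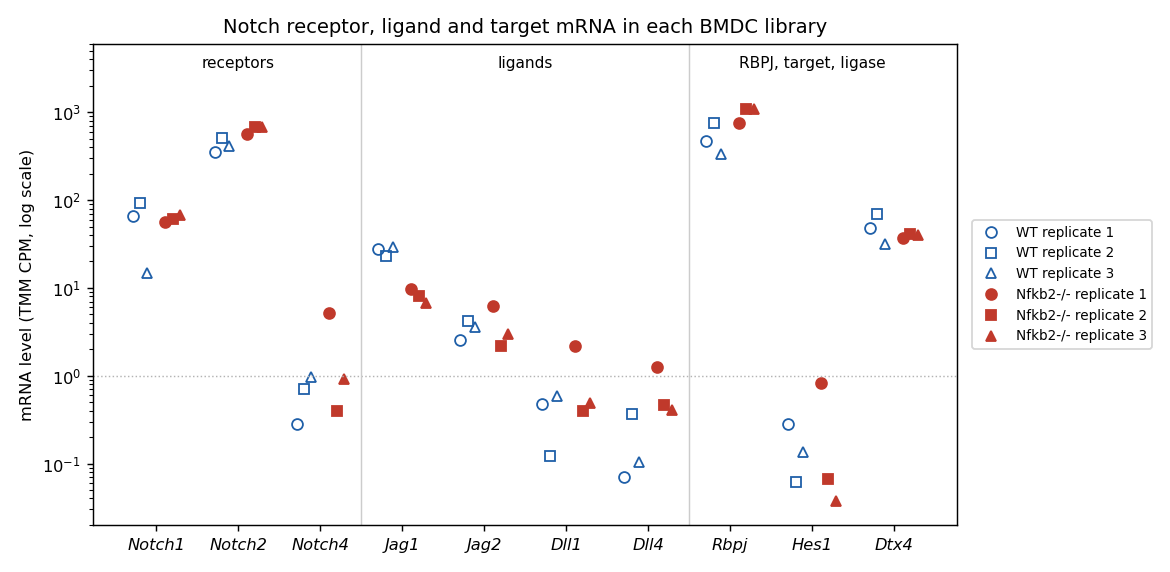
mRNA level of the 10 Notch genes in each library, in TMM CPM on a log axis, with open blue symbols for the 3 WT and filled red symbols for the 3 Nfkb2-/- libraries. All 3 Nfkb2-/- libraries lie below all 3 WT libraries for Jag1, and Nfkb2-/- replicate 1 (filled circle) is the highest library for 5 genes, Notch4, Jag2, Dll1, Dll4 and Hes1.

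Jag1 (ENSMUSG00000027276, chromosome 2, 137081456 to 137116644 in GRCm38) encodes Jagged1, a ligand that presents Notch signals to adjoining cells. Its level was 27.7, 22.8 and 29.1 CPM in WT and 9.61, 8.16 and 6.76 CPM in Nfkb2-/- BMDCs. Every Nfkb2-/- library was well below every WT library, and the spread within each genotype was small beside the gap. The means were 26.5 ± 3.34 CPM (SD, n = 3) in WT and 8.18 ± 1.43 CPM (SD, n = 3) in Nfkb2-/- BMDCs, so that the level was 3.25-fold higher in WT. The log2 fold change was -1.70 (standard error 0.20, 95% confidence interval -2.16 to -1.24, edgeR adjusted p = 0.0277). DESeq2 gave an adjusted p of 2.01e-11 and limma voom one of 0.0186. The exact permutation test over the 6 libraries gave p = 0.1 (two-sided), the smallest that 3 against 3 allow.

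The size of the Jag1 difference changed little when libraries were left out, with log2 fold changes between -1.84 and -1.57, whereas the call itself was lost in 4 of the 6 fits with 1 library left out. Jag1 remained called without WT replicate 2 (edgeR adjusted p = 0.00948) or WT replicate 3 (0.0339). The adjusted p was 0.130 without WT replicate 1, 0.0816 without Nfkb2-/- replicate 1, 0.163 without replicate 2 and 0.156 without replicate 3 (edgeR). In those 4 fits no gene at all passed the threshold, although 2325, 4088, 2580 and 2726 genes had an unadjusted p under 0.05. With WT replicate 3 and Nfkb2-/- replicate 1 both left out, the log2 fold change was -1.78 (edgeR adjusted p = 0.0260). WT replicate 3, the library with the low macrophage marker sum, had the highest Jag1 level. The part of the culture's cell types in the Jag1 values was not tested.

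Of 10640 other genes averaging 5 CPM or more, those whose log2 CPM followed Jag1 most closely across the 6 libraries were Gm15558, Gramd1b and Gbp4, with Pearson correlations of 0.997, 0.996 and 0.993 that rest largely on the difference between the genotypes. Gbp4, an interferon-inducible guanylate-binding protein, had means of 94.0 CPM in WT and 39.2 CPM in Nfkb2-/- BMDCs and was likewise called lower (log2 fold change -1.26, edgeR adjusted p = 0.0271). Gramd1b, which encodes a sterol transfer protein, had a log2 fold change of -0.59 and missed the threshold (edgeR adjusted p = 0.0863). Gm15558 is an antisense gene without an assigned function, and without knowledge of the strand its reads cannot be told from those of an overlapping gene.

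Jag2 encodes the other Jagged ligand and was present at a much lower level. It measured 2.53, 4.24 and 3.57 CPM in WT and 6.28, 2.17 and 2.99 CPM in Nfkb2-/- libraries. The genotypes overlapped, with the highest value in Nfkb2-/- replicate 1 and the lowest in replicate 2 of the same genotype. The estimate on the log2 scale was 0.15 (standard error 0.42, 95% confidence interval -0.84 to 1.14, edgeR adjusted p = 0.890), and it was -0.42 without Nfkb2-/- replicate 1. Per length of exon, Jag1 exceeded Jag2 by ratios of 13.1, 6.42 and 9.73 in the WT libraries and of 1.83, 4.49 and 2.70 in the Nfkb2-/- libraries. These ratios did not overlap, and their mean differed by -1.73 on the log2 scale (exact permutation test, two-sided, p = 0.1). Jag1 mRNA made up 84.2% to 89.6% of the summed level per length of Jag1, Jag2, Dll1, Dll3 and Dll4 in WT libraries and 42.8% to 72.7% in Nfkb2-/- libraries, where the lowest share was that of Nfkb2-/- replicate 1.

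The Delta-like ligands Dll1 and Dll4, the ligands best known for lymphocyte and vascular Notch signals, were close to the limit of detection. Dll1 had 20, 4 and 17 counts in WT and 74, 12 and 26 counts in Nfkb2-/- libraries, or at most 0.584 CPM outside Nfkb2-/- replicate 1, where it reached 2.18 CPM. Its log2 fold change of 1.37 (standard error 0.89, edgeR adjusted p = 0.485) was 0.16 without that library. Dll4 had 3, 12 and 3 counts in WT and 43, 14 and 22 counts in Nfkb2-/- libraries. These groups did not overlap, at 0.0710, 0.369 and 0.103 CPM against 1.27, 0.461 and 0.411 CPM, but the closest values differed by little. The log2 fold change of Dll4 was 1.96 (standard error 0.91, 95% confidence interval -0.18 to 4.11, edgeR adjusted p = 0.336), and 1.27 without Nfkb2-/- replicate 1 (edgeR adjusted p = 0.385). The antisense gene Gm14207 overlaps Dll4 and had 25, 6 and 10 counts in WT and 49, 6 and 22 counts in Nfkb2-/- libraries, so that with the strand setting not known the reads of Dll4 are uncertain.

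**Figure D2:**
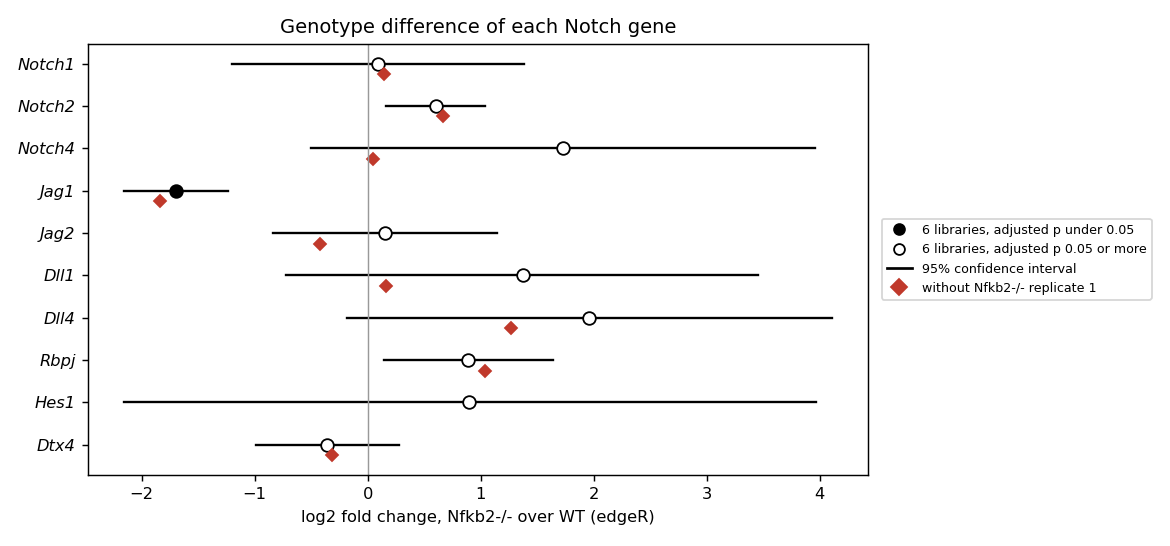
log2 fold change, Nfkb2-/- over WT, of the 10 Notch genes from edgeR (circles) with 95% confidence intervals (lines), and the same without Nfkb2-/- replicate 1 (red diamonds). Jag1 lies at -1.70, the estimates of Notch4 and Dll1 move from 1.73 and 1.37 to 0.05 and 0.16 without that library, and Hes1 has no diamond because it then falls under the count minimum.

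Notch2 was the predominant receptor. Its libraries measured 354, 506 and 410.4 CPM in WT and 568, 672 and 683 CPM in Nfkb2-/- BMDCs. The genotypes did not overlap, and the highest WT library lay a little below the lowest Nfkb2-/- library. WT BMDCs averaged 423 ± 76.7 CPM (SD, n = 3) and Nfkb2-/- BMDCs 641 ± 63.3 CPM (SD, n = 3), and the estimated log2 fold change was 0.60 (standard error 0.19, 95% confidence interval 0.16 to 1.04). The adjusted p was 0.170 with edgeR and 0.124 with limma voom, so that Notch2 missed the threshold. With DESeq2 it passed at an adjusted p of 0.0433, in a fit that called 8.60% of all genes tested. The log2 fold change stayed between 0.48 and 0.73 with any library left out. The exact permutation test gave p = 0.1 (two-sided), the smallest possible. The short uncurated genes Gm42819 and Gm42820 lie within Notch2 on its strand and had at most 788 counts in a library, where Notch2 had 11944 or more. By immunoblot, the study reports no increase of Notch2 protein in BMDCs that lack RelB. That result concerns protein and the loss of another gene, and the mRNA values here were not compared with it.

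Notch1, the receptor best studied in T cell development, varied most among the WT libraries. It measured 65.4, 93.2 and 14.8 CPM in WT and 55.9, 60.9 and 67.5 CPM in Nfkb2-/- libraries. The Nfkb2-/- libraries lay close together inside the WT range, and WT replicate 3 was far below the rest. This gave a log2 fold change of 0.09 (standard error 0.55, 95% confidence interval -1.20 to 1.38, edgeR adjusted p = 0.952), an interval that leaves room for a difference of either sign. Without WT replicate 3 it was -0.36 (standard error 0.19, edgeR adjusted p = 0.433). WT replicate 3 was also the library with the macrophage marker sum of 166 CPM. The part of these markers in the low Notch1 value was not tested.

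Notch4, a receptor known from the endothelium, was barely detected, with 12, 23 and 28 counts in WT and 174, 12 and 49 counts in Nfkb2-/- libraries. Nfkb2-/- replicate 1 reached 5.13 CPM and no other library exceeded 0.962 CPM. The log2 fold change of 1.73 (standard error 0.95, edgeR adjusted p = 0.415) was 0.05 without that library. Notch3, which is not one of the 10, was similarly uneven, with 150 counts in Nfkb2-/- replicate 1, against 6 to 31 in the other libraries. Per length of exon, Notch2 accounted for 87.4% to 96.9% of the summed level of the 4 Notch receptors in WT and for 91.2% to 93.4% in Nfkb2-/- libraries. The ratio of Notch2 to Notch1 per length was 7.15, 7.16 and 36.5 in WT and 13.4, 14.5 and 13.4 in Nfkb2-/- libraries. These ranges overlapped because of WT replicate 3, and the mean log2 ratio differed by 0.16 (exact permutation test, two-sided, p = 1).

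Rbpj encodes the DNA-binding partner of all Notch receptors, which also represses targets in their absence. It measured 469, 762 and 338 CPM in WT and 746, 1082 and 1084 CPM in Nfkb2-/- libraries. The groups overlapped by a narrow margin, since WT replicate 2 lay just above Nfkb2-/- replicate 1. The log2 fold change was 0.89 (standard error 0.32, 95% confidence interval 0.14 to 1.64), with an adjusted p of 0.215 from edgeR and 0.0683 from DESeq2. Leaving out WT replicate 3, the lowest library, gave 0.66 (edgeR adjusted p = 0.316), and leaving out WT replicate 2 gave 1.25 (edgeR adjusted p = 0.0693). The processed pseudogene Rbpj-ps3 had 84 to 435 counts per library, against 9839 to 58055 for Rbpj, and the antisense gene with the most counts inside Rbpj, Gm10441, had 40 or fewer.

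Hes1, a repressor and the standard readout of Notch activity, was at the floor of these libraries. It had 12, 2 and 4 counts in WT and 28, 2 and 2 counts in Nfkb2-/- libraries, 50 in all, which is exactly the minimum for testing, and without the 28 counts of Nfkb2-/- replicate 1 it would not have been tested. The highest level was 0.826 CPM. With edgeR its log2 fold change was 0.90 (standard error 1.31, 95% confidence interval -2.16 to 3.97, adjusted p = 0.763), and with limma voom it was -0.39, so that no direction can be given at this depth. Of the related targets in the hand-written lists, Hes5 and Nrarp had too few counts for a test.

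Dtx4 encodes an E3 ubiquitin ligase of the Deltex family, which binds the intracellular part of Notch. It measured 48.4, 69.6 and 31.8 CPM in WT and 36.8, 40.6 and 39.6 CPM in Nfkb2-/- libraries. The Nfkb2-/- libraries were tightly grouped within the WT range, and WT replicate 3 was the lowest library. The estimate on the log2 scale was -0.36 (standard error 0.27, 95% confidence interval -0.99 to 0.28, edgeR adjusted p = 0.545), and it ranged from -0.59 without WT replicate 3 (standard error 0.19, edgeR adjusted p = 0.190) to -0.06 without WT replicate 2 (edgeR adjusted p = 0.912).

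**Figure D3:**
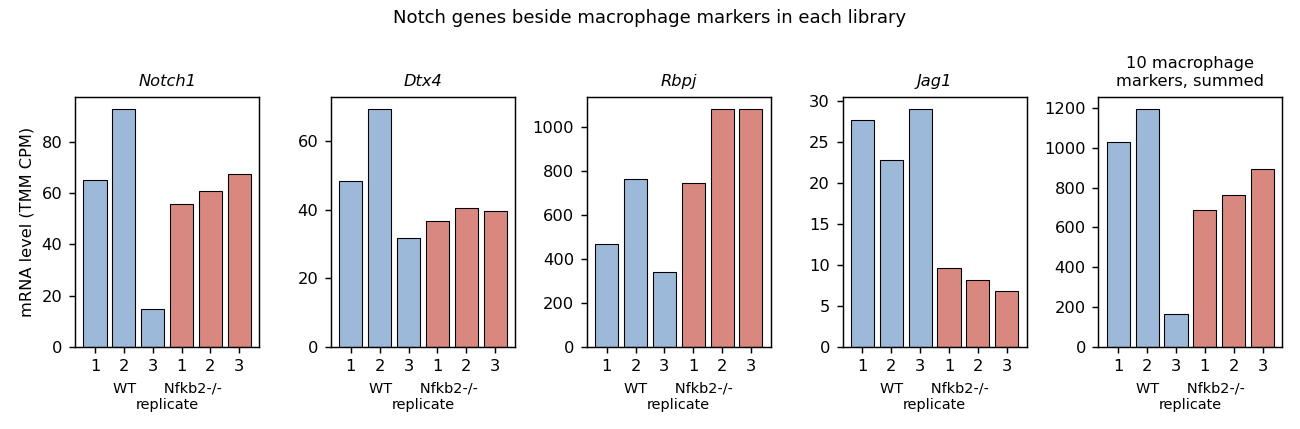
mRNA level in TMM CPM, on axes that start at 0, of Notch1, Dtx4, Rbpj and Jag1 and of the sum of 10 macrophage markers, with 1 bar per library (blue for WT, red for Nfkb2-/-). WT replicate 3 is the lowest library for Notch1 (14.8 CPM), Dtx4 (31.8 CPM), Rbpj (338 CPM) and the markers (166 CPM), and the highest for Jag1 (29.1 CPM).

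Compared per kilobase of exon, the 10 genes formed a steep order in WT BMDCs. Rbpj and Notch2 led with 41.0 ± 17.0 and 39.3 ± 7.11 RPKM (CPM per kilobase of exon; SD, n = 3) and did not differ beyond their spread. Dtx4 followed with 9.55 ± 3.63 RPKM, then Jag1 with 4.55 ± 0.573 RPKM and Notch1 with 4.06 ± 2.79 RPKM, a pair again within their spread. Jag2 stood at 0.495 ± 0.123 RPKM, and Dll1, Notch4, Hes1 and Dll4 were all under 0.1 RPKM on average, where their order cannot be told. In WT the latter pair had no fixed order, with Notch1 at 4.59, 6.55 and 1.04 RPKM and Jag1 at 4.76, 3.91 and 4.99 RPKM. In Nfkb2-/- BMDCs Notch1, at 3.93 to 4.74 RPKM, lay above Jag1, at 1.16 to 1.65 RPKM, in each library. The ratio of Notch2 to Jag1 per length was 6.90 to 12.0 in WT and 31.9 to 54.6 in Nfkb2-/- libraries, a difference of 2.31 on the log2 scale. Since neither gene overlapped between the genotypes and they differed in opposite directions, this ratio could not overlap either. It restates the values of both genes and is no further result.

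Genes with few counts were highest in Nfkb2-/- replicate 1 far beyond the Notch pathway. Of the 6541 genes tested with a mean under 1 CPM, 62.0% had their highest value in that library, against 18.1% of the 15308 genes at 1 CPM or more. The median log2 fold change was 0.60 in the former and -0.01 in the latter. Markers of T and NK cells summed to 8.61 CPM in that library and to 0.891 to 2.17 CPM in the others, with none of the 10 reaching a mean of 1 CPM. Endothelial markers, relevant for Notch4 and Dll4, summed to 103 CPM there, against 76.7 and 91.5 CPM in the other Nfkb2-/- and 11.3 to 71.2 CPM in the WT libraries. Of these 10, 3 reached a mean of 1 CPM, while the defining gene Cdh5 was at most 1.80 CPM. The part of these markers in the Notch4, Dll1 and Dll4 values was not tested.

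Beyond the 10 members, 81 further genes of the pathway were listed by hand by role, of which 75 could be tested. Of these, 3 were called with edgeR, Neurl1a and Il2ra higher and Aph1c lower in Nfkb2-/- BMDCs, 3 of 75 beside the 1.14% of all genes tested. The median log2 fold change of the 75 genes was 0.03. With DESeq2 there were 12, of which 6 were higher and 6 lower, again beside 8.60% of all genes. The 3 values of each genotype did not overlap for 30.7% of the 75, against 24.7% of all genes tested.

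Neurl1a encodes Neuralized1, an E3 ubiquitin ligase that acts on Notch ligands in the cell that sends the signal. It measured 0.947, 1.32 and 0.790 CPM in WT and 10.6, 7.63 and 7.58 CPM in Nfkb2-/- libraries. All Nfkb2-/- libraries were far above all WT libraries, an 8.40-fold difference (log2 fold change 3.07, standard error 0.28, edgeR adjusted p = 0.0236). The estimate was 2.89 to 3.26 with any library left out, and the adjusted p reached 0.135 without Nfkb2-/- replicate 2, was 0.125 without WT replicate 1, 0.0816 without Nfkb2-/- replicate 1 and 0.119 without replicate 3 (edgeR). Neurl1a lies at 47178820 to 47259441 on chromosome 19, near the targeted gene Nfkb2, at 46304320 to 46312385 on the same chromosome. The part of this nearness in the Neurl1a difference was not tested. Of the other 6 genes for ligand ubiquitylation and endocytosis, among them Mib1 and Mib2, none was called.

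Of the 9 genes for the proteases that cleave Notch, Aph1c, a subunit of γ-secretase, was called. It measured 102, 78.6 and 71.6 CPM in WT and 44.2, 34.2 and 30.9 CPM in Nfkb2-/- libraries without overlap. This gave a log2 fold change of -1.20 (standard error 0.20, edgeR adjusted p = 0.0489), close to the threshold, and Aph1c missed it when WT replicate 1 was left out (adjusted p = 0.202, edgeR) or when Nfkb2-/- replicate 1, 2 or 3 was (0.0876, 0.217 and 0.212). The call was also lost with total counts alone, without TMM (log2 fold change -1.11, edgeR adjusted p = 0.0962). Aph1c has a near-identical neighbour, Aph1b, with 12.7 to 26.1 CPM, and the counting could have split reads between them. Adam10, at 235 ± 19.7 CPM (SD, n = 3) in WT and 242 ± 47.3 CPM (SD, n = 3) in Nfkb2-/- BMDCs, had a log2 fold change of 0.04 (95% confidence interval -0.39 to 0.48). Psen2, a catalytic subunit named here after its values were seen, measured 60.1, 52.5 and 79.4 CPM in WT and 39.8, 37.2 and 39.5 CPM in Nfkb2-/- libraries and was called with DESeq2 alone among the 3 tests (adjusted p = 0.0122, and 0.113 with edgeR).

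**Figure D4:**
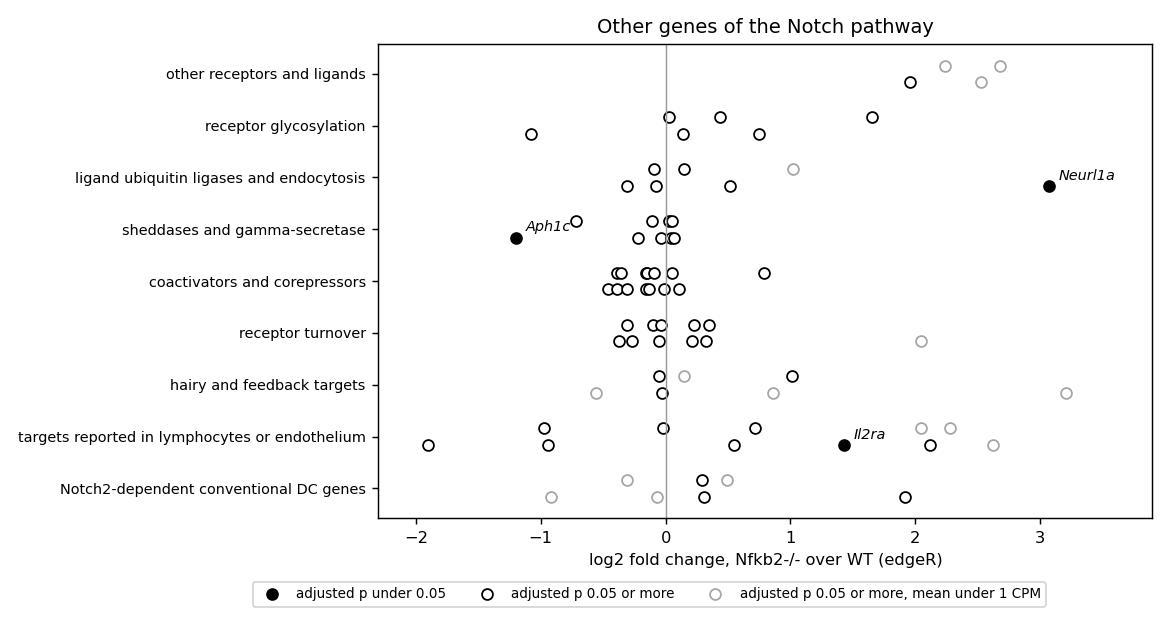
log2 fold change, Nfkb2-/- over WT, of the 75 other Notch pathway genes by hand-written list (rows; Dtx1 stands in 2 lists), with filled circles for adjusted p under 0.05 and grey outlines for genes with a mean under 1 CPM. Neurl1a (3.07), Aph1c (-1.20) and Il2ra (1.43) are the filled circles, and the grey circles lie mostly to the right of 0.

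Enzymes that attach sugars to the Notch receptors, and so tune which ligand they answer to, had 0 of 6 genes called by edgeR, 3 with an unadjusted p under 0.05 and 3 called by DESeq2. Of all genes tested, 17.1% had an unadjusted p under 0.05 and 8.60% were called by DESeq2, and the list counts that follow stand beside these shares. Lfng, the Fringe enzyme known to favour Delta-like over Jagged ligands, measured 42.2, 50.2 and 49.3 CPM in WT and 78.9, 75.5 and 84.2 CPM in Nfkb2-/- libraries. The groups were wide apart, and the adjusted p was 0.0572 with edgeR, 0.0424 with limma voom and 1.83e-04 with DESeq2 (log2 fold change 0.75, standard error 0.14). Poglut1, which adds O-glucose to the receptors, measured 385, 250.2 and 475 CPM in WT and 165, 187 and 173 CPM in Nfkb2-/- libraries. It too did not overlap (log2 fold change -1.08 ± 0.24, standard error, with adjusted p = 0.0877 from edgeR, 0.0664 from limma voom and 0.00159 from DESeq2). Mfng, another Fringe gene named after its values were seen, measured 1.26, 3.16 and 0.825 CPM in WT and 5.75, 5.56 and 5.19 CPM in Nfkb2-/- libraries (log2 fold change 1.65, adjusted p = 0.142 from edgeR and 0.0191 from DESeq2).

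Of 14 coactivators and corepressors tested, none was called by edgeR, 2 had an unadjusted p under 0.05 and 1 was called by DESeq2, and the most abundant, Ncor1 and Ep300, had log2 fold changes of -0.16 and -0.13 (adjusted p = 0.634 and 0.692, edgeR). Of 11 genes of receptor turnover none was called by edgeR or DESeq2, which gave no adjusted p for 1 of them, and none had an unadjusted p under 0.05. Nedd4 and Itch, ubiquitin ligases with the highest levels among them, had log2 fold changes of 0.35 and 0.23. None of the 4 other receptors and ligands tested was called by edgeR, with 1 at an unadjusted p under 0.05, and DESeq2 gave no adjusted p for 3 of them and did not call the other. Of these, Dner, a noncanonical ligand of neurons, had 6, 6 and 0 counts in WT and 63, 2 and 14 counts in Nfkb2-/- libraries (edgeR adjusted p = 0.411), with most of them again in Nfkb2-/- replicate 1. Of 7 hairy-related and feedback targets tested, none was called by edgeR and none had an unadjusted p under 0.05, and DESeq2 gave no adjusted p for 4 of them and called none of the rest. Bhlhe40, the most abundant of them, measured 694, 673 and 773 CPM in WT and 657, 703 and 701 CPM in Nfkb2-/- libraries, a log2 fold change of -0.05 whose sign turned with total counts alone or without WT replicate 3, and Hes6, at 5.10 to 7.17 CPM, one of -0.03 whose sign turned likewise under some alternatives.

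Among 11 tested genes reported as Notch targets in lymphocytes or endothelium, Il2ra, the α chain of the IL-2 receptor, was called. It measured 53.6, 94.0 and 93.8 CPM in WT and 207, 195 and 249.6 CPM in Nfkb2-/- libraries, all of them higher. The log2 fold change was 1.43 (standard error 0.25, edgeR adjusted p = 0.0491). This call lay at the threshold and was lost with DESeq2's size factors (adjusted p = 0.0527), without WT replicate 1 or 3 (0.156 and 0.0590) and without Nfkb2-/- replicate 1, 2 or 3 (0.0940, 0.217 and 0.197, edgeR). Efnb2, the ligand ephrin-B2, chosen after its values were seen, was at 96.7, 55.2 and 163 CPM against 24.9, 29.0 and 30.7 CPM (log2 fold change -1.90, adjusted p = 0.0625 from edgeR, 0.0491 from limma voom and 4.56e-05 from DESeq2). A further hand-written list held 7 genes linked to Notch2 in conventional dendritic cells, and their dependence on Notch2 was not tested. Of the 7, none was called by edgeR and 1 had an unadjusted p under 0.05, while DESeq2 called 1 and gave no adjusted p for 2. The gene in both counts was Itgae, which encodes CD103, at 1.73, 4.45 and 1.86 CPM in WT and 11.2, 7.93 and 11.2 CPM in Nfkb2-/- libraries (log2 fold change 1.92 ± 0.40, standard error, with adjusted p = 0.0735 from edgeR, 0.0359 from limma voom and 4.02e-04 from DESeq2). Cd8a, at means of 1.88 CPM in WT and 2.29 CPM in Nfkb2-/- BMDCs, had a log2 fold change of 0.29 (edgeR adjusted p = 0.824). The list had no common direction, with 4 of the 7 log2 fold changes above 0 and 3 below. Among the lower genes was Esam, chosen after its values were seen. Its means were 0.851 CPM in WT and 0.448 CPM in Nfkb2-/- BMDCs (log2 fold change -0.92, edgeR adjusted p = 0.619), near the floor.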

How the data were processed

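Counts of reads per Ensembl gene were deposited by the authors for each of 6 libraries, as whole numbers without normalization. The submitters' processing notes name HISAT2 and the builds GRCm38 and mm10, while the counting tool, annotation and strand setting are not given in the sources used here. A deposited table that joins the 6 libraries held the same values and served for that check alone. Tests covered the 21849 genes that GENCODE M21 (GRCm38) names and that had 50 or more counts in all 6 libraries together, following the study's filters. The study reports a smaller number of genes after its filters, so that the set tested here is not the same. Adjusted p-values and shares of all genes refer to the set tested here. IDs without a name held 1.01% to 1.75% of a library's counts and were left out of library sizes. The genotypes were compared with edgeR 4.0.16 (TMM, glmQLFit, glmQLFTest, no covariates, R 4.3.3), with Benjamini-Hochberg adjustment over all genes tested. DESeq2 1.42.0, which the study used, and limma 3.58.1 (voom) were run as alternatives. The standard error is the size of the log2 fold change over the square root of F. Exonic lengths and positions are from GENCODE M21, whose gene models may differ from those used for counting. The length of a gene is that of all its annotated exons together, with overlaps counted once. It can exceed the length of the mRNA present, so that orders, shares and ratios between genes per length depend on this choice.

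All 10 members, every pathway gene called by edgeR in a list, otherwise its 2 most abundant genes, and Nfkb2 were named, and the 3 genes most like the member with the smallest p. The members and lists were chosen with earlier results of these data known. Adam10 and other genes outside this rule were chosen after their values were seen. The values of 1 listed gene are not reported here. Promoter sequences are from a set of stretches at RefSeq starts, and the set used here held 8 of the 10 members, all but Hes1 and Dtx4. The scripts were tested on simulated counts. At this depth counting error matters for genes near the floor only. The alternatives were those of the closing section.

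Deviations of libraries with the same replicate number from their group means correlated at 0.262, 0.148 and 0.022, so that the numbers were not taken to pair the libraries.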

Additional observations from a re-analysis of the deposited data

How the results depend on the processing

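Over all genes tested, the 248 calls became 1878 with DESeq2, 488 with limma voom, 397 with filterByExpr, 1625 with no filter beyond 1 count, 459 with at least 10 counts in every library, 808 at an adjusted p under 0.1, 908 without WT replicate 3 and Nfkb2-/- replicate 1 together (added after seeing the data), 0 with the replicate block, where 3332 genes had an unadjusted p under 0.05, and 0 to 1076 with 1 library left out. Calls among the 10 members were 2 with DESeq2, 0 with the replicate block and 0 to 1 with a library left out, and 1, Jag1, in every other alternative. Calls among the other 75 pathway genes, 3 at first, were 12 with DESeq2, 6 with limma voom, 9 with no filter beyond 1 count, 5 with at least 10 counts in every library, 5 without both libraries together, 7 at an adjusted p under 0.1, 0 with the replicate block and 0 to 10 with a library left out. The replicate block gave Jag1 a log2 fold change of -1.70 (adjusted p = 0.0616, edgeR). The libraries share only a number, and not every library correlated best with its own number. Signs turned for genes that passed no test. Notch1 was -0.36 without WT replicate 3 and -0.32 without both libraries, and -0.36 to 0.59 with 1 library left out. Jag2 was -0.03 without WT replicate 1, -0.42 without Nfkb2-/- replicate 1 and -0.39 without both, and -0.42 to 0.38 with 1 left out. Hes1 was -0.39 with limma voom, and was not tested with any library left out. Notch3 was -0.14 without Nfkb2-/- replicate 1 and -0.23 without both, and -0.14 to 2.55 with 1 left out. Bhlhe40 was 0.04 with total counts, 0.01 without WT replicate 3 and 0.02 without both, and -0.12 to 0.01 with 1 left out. Hes6 was 0.05 with total counts, 0.01 without Nfkb2-/- replicate 1 and 0.08 without replicate 3, the lowest being -0.22. Cd8a was -0.04 without WT replicate 2 and -0.01 without Nfkb2-/- replicate 1, the highest being 0.98. The cause was not tested. The log2 fold changes of Notch2, Notch4, Dll1, Dll4, Jag1, Rbpj and Dtx4 kept their sign in every alternative in which they were tested, and DESeq2 gave no adjusted p for Dll4 and Hes1. Hes1, Dll1 and Dll4 had under 10 counts in at least 1 library.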
